A study of Mus musculus with 10 samples.

Results

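The 4 hemispheres on the side of a middle cerebral artery occlusion were compared with the 2 untreated brains of the series, each ipsilateral array against the untreated array of its genotype. The arrays were taken by their labels, and make up 6 of the 10 Illumina Mouse-6 bead arrays of a study of wild-type (WT) mice and mice with a knockout (KO) of Cd93, a transmembrane C-type lectin found on endothelium and on myeloid cells. All mice were of the C57/Bl6 strain and 10 weeks old, and all tissue was brain. Such an occlusion models stroke: flow is blocked and later restored, which is called reperfusion. In each genotype 1 ipsilateral array came from mice with 60 min of occlusion and 48 h of reperfusion, called the 48 h protocol here, and 1 from mice with 30 min of occlusion and 72 h of reperfusion, called the 72 h protocol. The length of occlusion and the time of reperfusion changed together between the protocols and cannot be told apart. The other 4 arrays hold the contralateral hemispheres and are set beside the comparison where they show how far the opposite side also departed from untreated brain.

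Every combination of genotype and condition was profiled once, so the genotypes are the only repeats of a condition. Whether the RNA of an array came from 1 mouse or a pool is not stated in the labels, nor whether an untreated sample was a hemisphere or the whole brain, nor whether the 2 hemispheres of a protocol belonged to the same mice. P-values therefore measure the spread between these arrays. A sham-operated group was not analysed here, so the effects of surgery and of the occlusion cannot be told apart in a comparison with untreated brain. 

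Loss of blood flow through the middle cerebral artery kills neurons in the striatum and the overlying cortex. Microglia, the resident phagocytes of the brain, and phagocytes from the blood then take up debris, while astrocytes around the injury enlarge and raise their intermediate filaments. Hormones of the stress response reach the whole brain, and signals of injury can spread to the opposite hemisphere, so that the opposite hemisphere need not resemble untreated brain.

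Of 46373 probes, between 12811 (the KO untreated array) and 16310 (the KO array of ipsilateral tissue after 48 h) exceeded background, and 9352 genes were tested. Defining markers of brain were high on all 10 arrays: the synaptic gene Snap25 lay between 13.53 and 13.91 and the myelin gene Mbp between 13.74 and 13.91. Levels are log2 quantile-normalized intensities, on which the lowest probes above background lie near 5, and they are not compared between genes. Differences are log2 differences from untreated brain of the same genotype, averaged over the arrays named, with the standard error (SE) and the Benjamini-Hochberg adjusted p of a limma model fitted to all 10 arrays. A change was called at an adjusted p under 0.05, and rose and fell are used only of such changes. Where no array of one side was above background the fold is given as a lower bound, "at least N-fold", taken against the higher of the lowest level detected on each such array and the value of the probe itself.

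Cd93 itself was measured at 5.33 on the KO untreated array and 6.90 on the WT untreated array. In ipsilateral tissue it was 6.21 (KO) and 8.64 (WT) under the 48 h protocol, and 6.23 (KO) and 7.81 (WT) under the 72 h protocol. Every WT array thus lay above the KO array of its condition, and Cd93 was above background on all 4 ipsilateral arrays, KO included. Ipsilateral tissue was 1.11 ± 0.24 (SE) above untreated brain (adjusted p = 0.00725 in limma), a call that was lost with genotype left out of the model (adjusted p = 0.28) and without the KO untreated array (adjusted p = 0.0804). A second Cd93 probe gave 0.80. Which part of Cd93 was deleted, and whether the probe lies in it, is not given in the sources used here.

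Ipsilateral tissue departed from untreated brain widely: 1556 genes (16.6%) rose and 1171 (12.5%) fell over both protocols. The large changes were upward, with 436 genes at least 2-fold higher and 22 at least 2-fold lower. All 4 ipsilateral arrays lay above both untreated arrays for 2002 genes (21.4%) and below both for 1989 (21.3%). Under the 48 h protocol alone 1469 genes (15.7%) rose and 1050 (11.2%) fell, and under the 72 h protocol 1356 (14.5%) rose and 864 (9.24%) fell. Without the KO untreated array, the one with the fewest probes above background, 947 genes rose and 333 fell. The split between directions depends on the scaling: centring each array on its median moved the median over all genes from -0.02 to 0.39 and called 5120 genes higher (97.9% of calls) and 111 lower, so moderate decreases are relative to the quantile scale. It depends on the detection filter too: among probes detected on all 10 arrays, covering 7645 genes, 1026 rose and 1162 fell. For 844 of the 9352 genes the change is a lower bound, no array of one side being above background. Those below background in untreated brain had little room to fall, which holds for the lists below too.

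The genes that rose most were acute-phase, phagocyte, chemokine and astrocyte genes. Lcn2, a secreted iron-carrier-binding protein of the acute phase, was at 4.50 (KO) and 4.67 (WT) in untreated brain, at 10.96 and 10.57 in ipsilateral tissue of the 48 h protocol, and at 10.37 and 8.69 under the 72 h protocol. It was not above background in untreated brain, and the WT 72 h array was the lowest of the 4 ipsilateral arrays although far above both untreated arrays. The difference was 5.56 ± 0.32 (adjusted p = 1.39e-06), at least 32.4-fold. Lgals3, the galectin of activated phagocytes, went from 5.86 (KO) and 5.41 (WT) to 10.90 and 10.37 under the 48 h protocol and 11.84 and 11.02 under the 72 h protocol. The ipsilateral arrays lay close together and the difference was 5.40 ± 0.18 (adjusted p = 1.79e-07), at least 42.2-fold. Serpina3n, a protease inhibitor of reactive astrocytes, was the only gene among the 12 highest that untreated brain held above background. It was at 8.39 (KO) and 8.49 (WT) in untreated brain, at 12.47 and 12.29 under the 48 h protocol and at 12.55 and 12.03 under the 72 h protocol, 3.89 ± 0.20 or 14.9-fold higher (adjusted p = 9.37e-07).

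The other 9 of the 12 highest genes were below background on both untreated arrays and above it on all 4 ipsilateral arrays. They were the chemokines Ccl4 (at least 20.6-fold), Ccl12 (at least 13.1-fold) and Cxcl1 (at least 10.9-fold), which attract monocytes and neutrophils, and the IgG receptor Fcgr4 (at least 13.6-fold). The others were the myeloid membrane protein gene Ms4a6d (at least 17.4-fold), the metalloproteinase inhibitor Timp1 (at least 15.5-fold), the protein crosslinking enzyme Tgm1 (at least 11.4-fold), the cholesterol hydroxylase Ch25h (at least 12-fold) and the epithelial membrane protein gene Emp1 (at least 13.5-fold). Adjusted p-values of these 9 lay between 4.88e-07 (Ms4a6d) and 4.67e-05 (Cxcl1). Second probes for Ccl4 and Ms4a6d also rose, by the smaller amounts of 1.95 and 1.81. For 10 of the 12 genes the WT array of the 72 h protocol was the ipsilateral array nearest to untreated brain, and none of the 12 passed the test for a difference between protocols. Cxcl1 had the widest spread, from 6.81 on the WT 72 h array to 9.84 on the WT 48 h array.

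**Figure D1:**
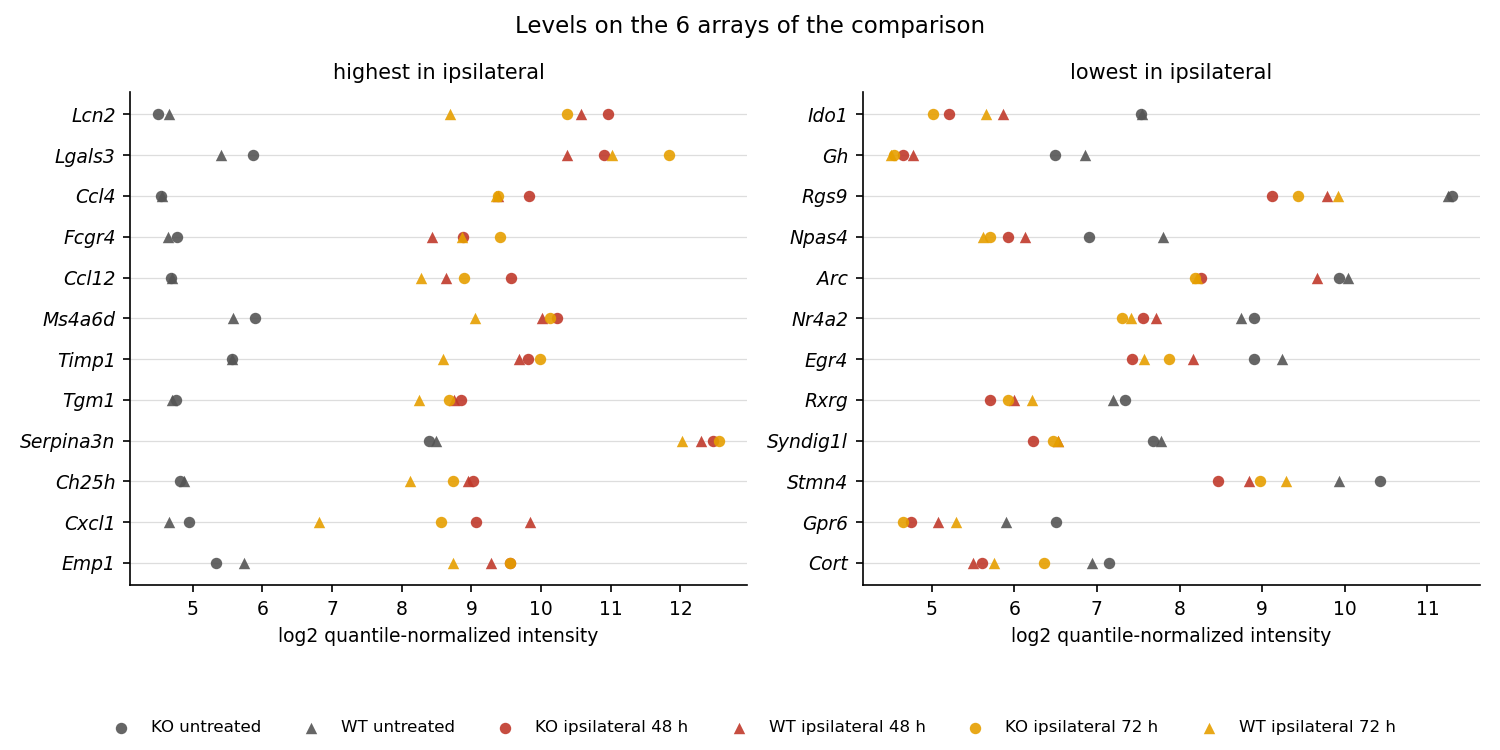
Levels of the 12 highest and 12 lowest genes on the 6 arrays of the comparison. The horizontal axis is the log2 quantile-normalized intensity, circles are KO and triangles WT arrays, grey is untreated brain, red ipsilateral tissue of the 48 h protocol and orange of the 72 h protocol. In every row all 4 ipsilateral points lie on the same side of both untreated points. The choice of genes asked for the same sign in all 4 differences from the untreated array of the genotype, which largely fixed this in advance.

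The genes that fell most were markers of striatal neurons and immediate early genes. Of the 12 lowest genes, 5 are on the list of striatal neurons and 4 on that of immediate early genes. All gene lists were chosen with earlier results of these data known. This overlap and the list counts below therefore describe values and are not independent evidence. Rgs9, the regulator of G-protein signalling of medium spiny neurons, was at 11.29 (KO) and 11.25 (WT) in untreated brain, at 9.12 and 9.79 under the 48 h protocol and at 9.43 and 9.91 under the 72 h protocol. Both KO hemispheres were lower than the WT hemisphere of their protocol, and all 4 lay below both untreated arrays, by 1.71 ± 0.15 or 3.27-fold (adjusted p = 2.19e-05). Ido1, which encodes a tryptophan-degrading enzyme and is on the striatal list, went from 7.53 (KO) and 7.55 (WT) to 5.21 and 5.86, and to 5.02 and 5.66 under the 72 h protocol. Ido1 fell by 2.10 on the log2 scale (SE 0.16, adjusted p = 7.26e-06), and 2 of the 4 ipsilateral arrays still held it above background. The other striatal genes of the group were the retinoid receptor Rxrg (-1.30), the synaptic gene Syndig1l (-1.29) and the orphan receptor Gpr6, which no ipsilateral array held above background (at least 2.14-fold lower). The remaining genes were Gh, described below, Stmn4, a neuronal regulator of microtubules (-1.29), and Cort, the neuropeptide cortistatin (-1.24).

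Genes of striatal neurons fell almost without exception. Of 24 measured striatal genes 23 fell and none rose, with a median difference of -0.90 against -0.02 for all genes tested. Drd1, the dopamine receptor of the direct pathway, fell by 0.99, Drd2, that of the indirect pathway, was at least 1.47-fold lower, and Ppp1r1b, the phosphoprotein DARPP-32, fell by 1.14. The phosphodiesterase Pde10a fell by 1.15 and the peptide precursors Tac1 and Penk fell by 0.91 and 0.67. Strip2 (-0.38) did not pass. The median was -1.06 (KO) and -0.72 (WT) under the 48 h protocol and -1.06 (KO) and -0.76 (WT) under the 72 h protocol, so KO was lower in both, a difference that was not tested. In bulk tissue, fewer cells of a type and less RNA per cell cannot be told apart, here and for every list below. Under median centring 16 striatal genes fell and none rose, with a median of -0.47, and Penk (adjusted p = 0.0785) lost its call. Drd1 lost its call without the KO untreated array (adjusted p = 0.053).

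Other neuronal genes changed less. Of 30 general neuronal and synaptic genes 18 fell and 1 rose, with a median of -0.41. Gabrb2, a GABA-A receptor subunit, fell by 0.89, and the glutamate receptor subunit Grin2b and the postsynaptic scaffold Dlg4 fell by 0.71 and 0.69. The neurofilament gene Nefh was the one that rose, by 0.42, a call lost without the KO untreated array (adjusted p = 0.168), without the WT untreated array (adjusted p = 0.195) and with genotype left out. Snap25 (-0.17), Syt1 (-0.17) and Syp (-0.21) did not pass. With the KO untreated array left out 5 of the 30 fell, without the WT untreated array 10 fell, and under median centring 1 fell and 2 rose with a median of 0.01. Grin2b (adjusted p = 0.196) and Dlg4 (adjusted p = 0.157) were among those that lost their call there. Of 18 cortical genes 10 fell and 1 rose, with a median of -0.41. Lamp5 fell by 0.80 and Kcnh3, a voltage-gated potassium channel, by 0.77. Of these cortical genes 5 fell without the KO untreated array, and under median centring 3 fell and 4 rose. Of 15 interneuron genes 5 fell, among them Cck (-0.56) and Reln (-0.46), while Gad1 (0.06), Gad2 (0.11), Pvalb (0.12) and Sst (-0.17) did not pass. Of the interneuron genes 3 fell without the KO untreated array, where Cck lost its call (adjusted p = 0.0663), and Reln lost its call without the WT untreated array (adjusted p = 0.067). Under median centring 1 fell, neither Cck nor Reln, and 3 rose.

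Genes of reactive astrocytes and of activated phagocytes rose almost without exception. Of 25 measured reactive astrocyte genes 24 rose and none fell, with a median of 2.25. Of the 25 genes 8 are also on another list here, so they are not confined to reactive astrocytes. For 12 of the 25 the change is a lower bound, and those below background in untreated brain had little room to fall. Gfap, the intermediate filament that marks astrocytes, was at 9.33 (KO) and 9.52 (WT) in untreated brain, at 12.11 and 12.45 under the 48 h protocol and at 12.14 and 12.20 under the 72 h protocol. Its 4 ipsilateral values lay within a narrow range, 2.80 ± 0.13 or 6.96-fold above untreated brain (adjusted p = 5.27e-07). Vim, another intermediate filament, rose by 3.42, Socs3, an inhibitor of cytokine signalling, by 3.10, and Osmr, the oncostatin M receptor, was at least 5.78-fold higher. Synm (-0.16) did not pass. Of 18 genes of homeostatic astrocytes 2 rose (Gjb6 and Aqp4) and 2 fell (Hes5 and Mfge8), with a median of 0.11. The calls of Gjb6 (adjusted p = 0.0524) and Mfge8 (adjusted p = 0.0601) were lost without the KO untreated array, and that of Aqp4 without the WT untreated array (adjusted p = 0.0956). The glutamate transporters Slc1a2 (0.24) and Slc1a3 (-0.08) did not pass. Glutamine synthetase (Glul) was at 4.96 (KO) and 6.19 (WT) in untreated brain and between 5.91 and 6.18 in ipsilateral tissue, so its 2 untreated arrays lie on either side of all ipsilateral arrays. The KO untreated value was below background, the lowest level detected on that array being 5.17.

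Of 25 genes of phagocyte activation 24 rose and none fell, with a median of 2.22. A lower bound stands for the change of 11 of the 25, and those below background in untreated brain had little room to fall. Cd72, a lectin-like receptor of B cells and myeloid cells, lay between 8.32 and 9.22 on the ipsilateral arrays and at 5.10 (KO) and 5.03 (WT) in untreated brain, at least 12.7-fold higher. Lysozyme (Lyz2) rose by 3.65, the lipid droplet protein gene Plin2 by 3.07, and the haem-degrading enzyme Hmox1 was at least 8.6-fold higher. Apoe (-0.01) did not pass. Of 14 markers of resting microglia 10 rose and 2 fell, with a median of 0.76: Fcrls, a microglial Fc receptor-like gene, rose by 2.19, Tmem119 by 0.96 and the fractalkine receptor Cx3cr1 by 0.72, while Siglech (-0.22) did not pass. Another list here also holds 3 of the 14, so the markers are not confined to resting microglia. The 2 that fell, Bin1 (-0.57) and Mef2c (-0.45), are also expressed by neurons or oligodendrocytes, and both lost their calls under median centring and without the WT untreated array (adjusted p = 0.117 and 0.0754). Cx3cr1 lost its call without the KO untreated array (adjusted p = 0.059).

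Markers of cells from the blood were fewer above background. Of 24 listed genes of blood-borne myeloid cells 10 were measured and 9 rose, with a median of 1.23, or 1.01 with genes below background at their bound. The change is such a bound for 7 of the 10, and those below background in untreated brain had little room to fall. S100a8, the calprotectin subunit of neutrophils, was at 4.71 (KO) and 5.22 (WT) in untreated brain, at 9.08 and 7.82 under the 48 h protocol and at 8.42 and 6.58 under the 72 h protocol. KO arrays were higher than WT arrays in both protocols, and the difference was 3.01 ± 0.59 (adjusted p = 0.00414), at least 6.86-fold. Arg1, arginase of alternatively activated macrophages, spread from 5.51 (WT 72 h) to 8.58 (KO 72 h). Without the KO untreated array S100a8 (adjusted p = 0.0959) and Arg1 (adjusted p = 0.0713) lost their calls and 3 of the 10 genes rose. Among the markers, Lcn2 and Fn1 are also made by astrocytes or vessels and Ly6c1 by endothelium. The neutrophil genes Mpo, Elane and Ltf and the monocyte receptor Ccr2 were not measured, being below background on all but at most 1 array. Of 22 lymphocyte genes only Cd8b1 and Il2rb were measured, at 0.20 and -0.03, and neither passed. The circulating-blood genes Hba-a1 (-0.18), Fech (-0.17) and Alas2 (-0.02) did not pass either.

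Of 18 measured chemokine genes and chemokine receptors 10 rose and 3 fell, with a median of 0.72, or 0.43 with genes below background at their bound. Besides the genes named above, Ccl3 (at least 5.32-fold), Ccl7 (at least 5.7-fold) and Cxcl16 (at least 6.42-fold) rose. The genes that fell were Cx3cl1, the neuronal fractalkine (-0.67), Ccl27a (-0.66) and Cxcl12 (-0.51). Without the KO untreated array 8 rose and 1 fell, Cx3cl1, and under median centring 13 rose and none fell. In the complement group 5 of 8 genes rose, and the 3 chains of C1q, which starts the classical pathway, did so together. C1qb was at 9.19 (KO) and 9.13 (WT) in untreated brain, at 10.94 and 11.17 under the 48 h protocol and at 11.98 and 11.77 under the 72 h protocol, 2.31 ± 0.13 higher over both (adjusted p = 1.27e-06). C1qc and C1qa rose by 2.18 and 2.04, and Serping1, the C1 inhibitor, by 1.37.

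All 20 measured interferon-response genes rose, with a median of 1.39. The change is a lower bound for 6 of the 20. Ifi30, the lysosomal thiol reductase, lay between 8.80 and 9.82 on the ipsilateral arrays, against 6.19 (KO) and 5.96 (WT) in untreated brain, 3.13 ± 0.14 higher (adjusted p = 5.27e-07). Ifi27l2a was at least 6.26-fold higher, and Ifitm1 and Ifitm3 rose by 2.40 and 2.36. Transcription factors of the pathway rose too: Irf9 by 1.51, while Irf8, Stat2 and Irf7 were at least 1.77-fold, 1.58-fold and 1.47-fold higher. The Irf7 call was lost without the KO untreated array (adjusted p = 0.0821). Of 17 antigen presentation genes 13 rose, with a median of 1.04, or 0.89 at the bounds. They held class II genes (H2-Ab1 at least 4.45-fold, Cd74 by 1.64, H2-Eb1 at least 2.45-fold) as well as class I genes (H2-D1 by 1.49, B2m by 1.24, H2-K1 at least 1.39-fold) and immunoproteasome subunits (Psmb8 by 2.04, Psmb9 at least 2.81-fold). Other probes for Psmb8 gave 1.80 and 0.80.

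The promoter of Ifitm3 is shown because that gene rose with its group and carries the letters of the interferon-stimulated response element. The motif searched was GAAA followed, after any 2 bases, by another GAAA, on both strands of the window from 250 bases before to 50 after the annotated start (RefSeq, GRCm38.p6). The window lies at chr7:141010695-141010994 on the minus strand and holds 2 matches, in capitals.
Ifitm3: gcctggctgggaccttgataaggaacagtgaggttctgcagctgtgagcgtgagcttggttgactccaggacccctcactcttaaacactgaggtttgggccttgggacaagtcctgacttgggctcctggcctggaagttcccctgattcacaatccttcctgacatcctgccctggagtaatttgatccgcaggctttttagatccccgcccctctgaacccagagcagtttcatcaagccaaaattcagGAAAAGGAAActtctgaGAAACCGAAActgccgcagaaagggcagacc
Of 19 measured interferon-response genes with a window 8 held a match (42.1%), against 3.47% of the first listed windows of all 26994 genes. The windows of Ifi30 and Ifitm1 held none, and a match describes letters only. The element is described for such genes, so an excess could be foreseen from the choice of the list.

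Cell cycle genes rose as a group. Of 30 measured genes 28 rose and none fell, with a median of 1.31, or 1.26 with genes below background at their bound. For 19 of the 30 the change is a lower bound. Those below background in untreated brain were tested only because arrays of operated mice held them, and had little room to fall. Prc1, which bundles microtubules at cell division, was at 5.53 (KO) and 5.30 (WT) in untreated brain, at 7.72 and 8.17 under the 48 h protocol and at 8.90 and 9.10 under the 72 h protocol. It was below background in untreated brain and highest on both 72 h arrays, 3.06 ± 0.15 higher over all 4 (adjusted p = 6.09e-07), at least 8.34-fold. Cdca3, a trigger of mitotic entry, lay at 5.69 (KO) and 5.61 (WT) in untreated brain and was likewise highest on the 72 h arrays, at 9.08 (KO) and 8.85 (WT), at least 6.77-fold higher over all 4. Uhrf1, which keeps DNA methylation through replication, and Tk1, thymidine kinase, were at least 6.8-fold and at least 3.37-fold higher. Of the replication genes Mcm2 was at least 2.49-fold higher and Mcm4 rose by 0.71, while Pcna (0.07) and Ccne1 (-0.17) did not pass. Mki67 had no probe named for it here.

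The promoters of Prc1 and Cdca3 are shown because both genes rose and carry the pair of motifs described for mitotic genes, the CCAAT box (CCAAT) and the cell cycle homology region (TTTGAA), searched on both strands of the same kind of window. The first Prc1 window lies at chr7:80294201-80294500 on the plus strand, and the Cdca3 window at chr6:124829926-124830225 on the plus strand. Capitals mark every match to either motif.
Prc1: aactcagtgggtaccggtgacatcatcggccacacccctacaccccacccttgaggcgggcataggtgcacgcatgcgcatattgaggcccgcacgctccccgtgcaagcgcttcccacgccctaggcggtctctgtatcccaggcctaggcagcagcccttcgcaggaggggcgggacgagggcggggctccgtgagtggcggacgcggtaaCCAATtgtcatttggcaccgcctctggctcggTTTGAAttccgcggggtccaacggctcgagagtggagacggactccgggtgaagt
Cdca3: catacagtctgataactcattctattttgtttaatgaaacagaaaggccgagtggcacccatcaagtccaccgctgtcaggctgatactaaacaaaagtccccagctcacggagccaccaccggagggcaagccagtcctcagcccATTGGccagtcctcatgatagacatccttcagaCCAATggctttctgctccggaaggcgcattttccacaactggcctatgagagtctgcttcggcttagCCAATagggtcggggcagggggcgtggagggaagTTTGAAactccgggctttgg
Of 26 measured cell cycle genes with a window 19 held CCAAT (73.1%) and 11 held TTTGAA (42.3%), against 37.9% and 18.1% of the first listed windows of all 26994 genes. The Tk1 window held neither motif, and neither Uhrf1 window held TTTGAA. These shares count every measured member with a window, changed or not. An excess of motifs described for such genes could be foreseen from the choice of the list, and nothing about the response to injury follows from it.

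Vessel and matrix genes rose. Of 25 genes of endothelium and its barrier 14 rose and 2 fell, with a median of 0.61. Von Willebrand factor (Vwf) was at 8.38 (KO) and 7.97 (WT) in untreated brain, at 10.69 and 10.39 under the 48 h protocol and at 11.34 and 10.39 under the 72 h protocol, 2.53 ± 0.14 or 5.76-fold higher (adjusted p = 1.27e-06). Pecam1, Cdh5 and the tight junction gene Cldn5 rose by 1.36, 1.07 and 0.61, though Cldn5 lost its call without the KO untreated array (adjusted p = 0.165) or the WT one (adjusted p = 0.0594). Neither lower call remained without the KO untreated array or under median centring. Of 14 genes of activated endothelium and adhesion 11 rose, with a median of 1.36, or 1.25 at the bounds. Icam1 rose by 2.04 and Cd44 was at least 7.49-fold higher. P-selectin (Selp) was at 7.77 (KO) and 7.72 (WT) under the 48 h protocol and at 7.58 (KO) and 5.01 (WT) under the 72 h protocol, against 4.63 and 4.68 in untreated brain. The WT 72 h array was thus close to untreated brain, and the Selp call (adjusted p = 0.00347) was lost without the KO untreated array (adjusted p = 0.0718). Of 22 matrix genes 20 rose, with a median of 0.98, or 0.94 at the bounds: Tgfbi, an adhesion protein induced by TGF-beta, by 3.46, Tnc, tenascin C, by 2.06, and Col4a1 of the basement membrane by 1.74.

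**Figure D2:**
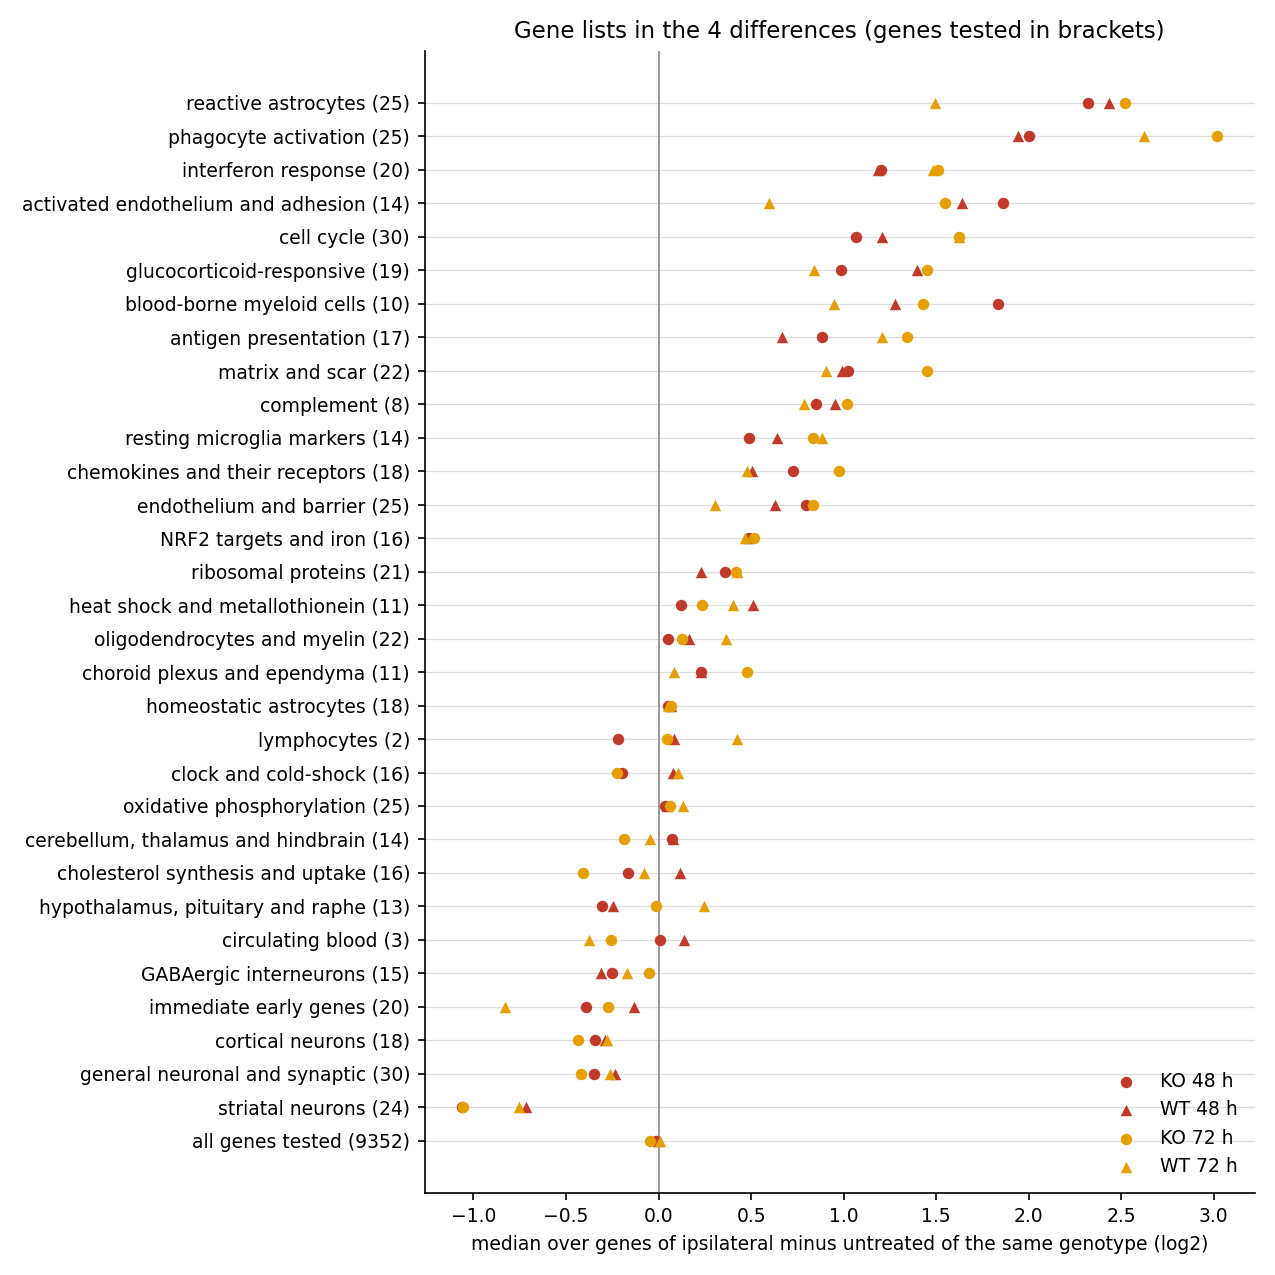
Median log2 difference of each gene list in the 4 ipsilateral arrays, each against the untreated array of its genotype, with the number of genes tested in brackets. Circles are KO and triangles WT, red is the 48 h protocol and orange the 72 h protocol, and the vertical line marks 0. Striatal neurons, between -1.06 and -0.72, lie lowest on 3 of the 4 arrays, while on the WT 72 h array immediate early genes lie lower (-0.83 against -0.76), and the medians of all genes tested lie between -0.05 and 0.01.

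Stress and housekeeping groups differed among themselves. Of 16 NRF2 target and iron genes 10 rose, led by Hmox1 (at least 8.6-fold), the ferritin light chain Ftl1 (1.35) and the metal transporter Slc11a1 (1.36). The small heat shock protein Hspb1 rose by 2.25 and its partners Hspb8 and Bag3 by 1.14 and 0.93. Hsp90aa1 fell by 0.52, a call lost without the KO untreated array (adjusted p = 0.236) and under median centring. Of 22 oligodendrocyte and myelin genes 5 rose and none fell, with transferrin (Trf) at 1.47 and Cldn11 at 0.87. Mbp (0.06), Mog (0.03) and Cnp (-0.15) did not pass, and without the KO untreated array 2 of the 22 rose. Ribosomal protein genes rose in 13 of 21 cases, with a median of 0.41 and at most 0.74 (Rpl32), but in 4 cases without the KO untreated array. Of 25 genes of oxidative phosphorylation 2 rose and none fell, with a median of 0.01. Of 16 cholesterol genes 1 rose (Ebp, 0.57) and 1 fell (Insig1, -0.50), and of 16 clock and cold-shock genes 1 rose (Rbm3, 0.90) and 1 fell (Nr1d1, -0.42). Insig1 (adjusted p = 0.316) and Nr1d1 (adjusted p = 0.185) lost their calls without the KO untreated array and under median centring, and Rbm3 with genotype left out. These quiet lists depend on the scaling: under median centring 16 genes of oxidative phosphorylation, 18 of oligodendrocytes, 9 of the clock list and 13 of homeostatic astrocytes were higher.

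Markers of regions that a dissection could include in different amounts were also read. Of 13 genes of hypothalamus, pituitary and raphe 4 rose and 1 fell. Tph2, the enzyme of serotonin synthesis in the raphe, was at 6.95 (KO) and 5.92 (WT) in untreated brain and between 7.30 and 7.77 on the ipsilateral arrays, 1.09 ± 0.26 higher (adjusted p = 0.0111). Slc6a4, the serotonin transporter, rose by 0.79. Both calls were lost without the WT untreated array (adjusted p = 0.123 and 0.263), and none of the 13 genes rose then. Oxt, oxytocin, ranged from 6.86 to 8.85 on the ipsilateral arrays against 8.95 (KO) and 8.71 (WT), and did not pass (-1.15, adjusted p = 0.0765). Of 14 cerebellar, thalamic and hindbrain genes 1 rose (Pcp2) and 1 fell (Calb1). The Calb1 call was lost without the WT untreated array (adjusted p = 0.296), under median centring and with genotype left out (adjusted p = 0.0928). Of 11 choroid plexus and ependymal genes 5 rose and 1 fell, while transthyretin (Ttr, 0.16) did not pass. Of the choroid plexus genes 1 rose without the KO untreated array. The part of such region markers in the other results was not tested.

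A contralateral reference changes what is seen. The contralateral hemispheres differed from untreated brain at 113 genes that rose (1.21%) and 22 that fell (0.235%). These contralateral calls rest on the KO untreated array: 3 genes were called without it, and 13 with genotype left out of the model. Ipsilateral against contralateral tissue called 1543 genes higher (16.5%) and 1365 lower (14.6%). These comparisons share arrays with the main one, the untreated arrays in the first case and the ipsilateral arrays in the second, so their values are given side by side. Untreated brain has 2 arrays and each side of the brain 4, so the counts of the comparisons also differ in power. Gfap was 2.80 above untreated brain in ipsilateral tissue and 1.26 above it in contralateral tissue (adjusted p = 0.0041 for the latter, 0.133 without the KO untreated array), which leaves 1.54 between the hemispheres. Lcn2 was at least 4.33-fold higher in contralateral tissue than in untreated brain, with levels of 8.34 (KO) and 6.93 (WT) under the 48 h protocol and 6.97 and 6.73 under the 72 h protocol. Of the 12 genes highest in ipsilateral tissue, 6 were also called higher in contralateral tissue: besides Lcn2, Serpina3n by 2.01, Ccl4 at least 2.73-fold, Lgals3 at least 2.6-fold, Ch25h at least 1.8-fold and Fcgr4 at least 1.73-fold. None of these 6 contralateral calls remained without the KO untreated array (adjusted p from 0.116 to 0.375), 4 remained without the WT untreated array and 2 with genotype left out.

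Genes that departed from untreated brain in the same direction in both hemispheres were picked by a rule: called in ipsilateral tissue, within 0.5 of the contralateral level, and of the same sign on all 4 ipsilateral and all 4 contralateral arrays. The rule asked for no call in contralateral tissue. Of the 9352 genes tested it found 382 higher and 413 lower, predicted transcripts skipped, more than the 135 genes called in contralateral tissue. Where the ipsilateral change was small, a very small contralateral difference could pass. Both hemispheres were set against the same untreated arrays, so an error in those arrays moves both the same way. The counts therefore do not show how many genes changed in contralateral tissue. Since the rule used these levels, the following values describe them. Of the 20 largest, shown here, 5 differed between the hemispheres past the threshold (Stk32a, Polr3e, Slc2a1, Npas4 and Stmn4, by 0.40 to 0.46 in size, adjusted p from 0.0051 to 0.0454). Plin4, a coat protein of lipid droplets, was at 5.79 (KO) and 5.40 (WT) in untreated brain. It reached 9.66 and 8.90 in ipsilateral and 9.86 and 8.69 in contralateral tissue of the 48 h protocol, and 9.84 and 8.02 in ipsilateral and 9.82 and 8.16 in contralateral tissue of the 72 h protocol. Each ipsilateral array lay close to the contralateral array of its genotype and protocol, KO was higher than WT in every pair, and untreated brain stood at least 11.4-fold below ipsilateral and at least 11.6-fold below contralateral tissue. The difference between the hemispheres was -0.03. Fkbp5, a chaperone of the glucocorticoid receptor, was at 7.20 (KO) and 6.78 (WT) in untreated brain and between 7.83 and 8.66 on all 8 arrays of operated mice, 1.23 higher in ipsilateral and 1.12 higher in contralateral tissue. Sgk1, a kinase induced by glucocorticoids, was 1.34 and 1.04 higher, and the sulfotransferase Sult1a1 1.43 and 1.56.

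The other genes of this kind with higher levels were the integrin Itgad (at least 2.77-fold in ipsilateral and 2.1-fold in contralateral tissue), the hypoxia-inducible factor Hif3a (at least 3.6-fold and 4.11-fold) and the kinase Stk32a (1.20 and 0.78 on the log2 scale). They were followed by Itih2, a protein that binds hyaluronan (1.18 and 0.77), the RNA polymerase III subunit Polr3e (1.18 and 0.75), and Slc2a1, the glucose transporter of the blood-brain barrier (1.11 and 0.69). A second probe for Hif3a went the other way (-0.34, adjusted p = 0.0282), and a second probe for Stk32a gave 0.31 and did not pass. In contralateral tissue 9 of the 10 were called, Itih2 (adjusted p = 0.14) not, and 2 of the 9 calls, Plin4 and Hif3a, remained without the KO untreated array. With genotype left out 1 remained, Sult1a1 (adjusted p = 0.0468). The ipsilateral call of Itih2 was lost without the KO untreated array (adjusted p = 0.0821). Of 19 measured genes on the glucocorticoid-responsive list 15 rose in ipsilateral tissue, with a median of 1.23, and 6 in contralateral tissue, with a median of 0.46. Without the KO untreated array the ipsilateral median was 1.14. Contralateral calls as a whole rested on that array, as said above. Lcn2, on this list, lost its contralateral call with genotype left out (adjusted p = 0.0686 in limma). Of the 19 genes 5 are also on another list here. Against the contralateral hemisphere 9 of the 19 were higher, with a median of 0.30. Per1 (-0.12) and Klf9 (0.01), also on that list, did not pass in ipsilateral tissue.

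Growth hormone (Gh) led the genes that were lower in both hemispheres. It was above background on both untreated arrays, at 6.50 (KO) and 6.85 (WT), and on none of the 8 others, where it lay between 4.48 and 4.77. It was at least 3.21-fold lower in ipsilateral tissue (adjusted p = 8.59e-07) and at least 3.09-fold lower in contralateral tissue, a call that held without either untreated array and with genotype left out. Gh is the hormone of the anterior pituitary, whose other listed genes Prl, Pomc, Cga and Tshb were not measured, being above background on at most 1 array. The part of pituitary tissue in the Gh difference was not tested.

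Next under the rule were Npas4 and Arc, immediate early genes, which neurons switch on within minutes of activity. In contralateral tissue 1 of the 20 measured immediate early genes was called lower, Npas4, and their median was -0.32. Arc (-0.94), Egr4 (-0.68) and Nr4a2 (-0.62) did not pass there, and the rule did not pick Egr4 or Nr4a2. Npas4 was at 6.90 (KO) and 7.80 (WT) in untreated brain, at 5.93 and 6.14 in ipsilateral tissue of the 48 h protocol, and at 5.71 and 5.62 under the 72 h protocol, with contralateral levels between 5.99 and 6.65. It was 2.84-fold lower in ipsilateral tissue (adjusted p = 0.000115) and lower by 1.04 on the log2 scale in contralateral tissue. Arc, a regulator of synaptic strength, was at 9.93 (KO) and 10.04 (WT) in untreated brain, but its WT 48 h array held 9.66 in ipsilateral and 9.97 in contralateral tissue. The other 3 ipsilateral arrays lay between 8.18 and 8.26, and the call for Arc (-1.41, adjusted p = 0.00652) was lost without the KO untreated array (adjusted p = 0.128). Egr4 (-1.31, adjusted p = 0.00498) likewise lost its call without that array (adjusted p = 0.0648), and Nr4a2 fell by 1.33. Of 20 immediate early genes 7 fell and 1 rose, with a median of -0.35. The rise was in Klf2 (0.72), and Fos (-0.06), Junb (-0.30) and Egr1 (-0.64) did not pass. Of the 20 genes 3 fell without the KO untreated array, and under median centring 5 fell and 5 rose.

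The remaining lower genes picked by the rule were Stmn4 (-1.29 in ipsilateral and -0.89 in contralateral tissue), the calcium channel subunit Cacng3 (-1.11 and -0.78), the zinc finger gene Zfp955a (-1.01 and -0.82) and Asph (-0.96 and -0.62). They also held the myosin light chain Myl4 (-0.96 and -0.75), the G-protein subunit Gnb4 (-0.95 and -0.51) and the lipoprotein receptor-related gene Lrp1b (-0.93 and -0.62). In contralateral tissue 4 of the 10 lower genes were called (Gh, Npas4, Stmn4 and Myl4), and of these 1, Gh, without the KO untreated array. For Asph the 2 other probes gave 0.45 and -0.34, and a second probe for Gnb4 gave -0.18. Without the KO untreated array the ipsilateral calls of Cacng3 (adjusted p = 0.0851), Zfp955a (adjusted p = 0.0524) and Gnb4 (adjusted p = 0.105) were lost.

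**Figure D3:**
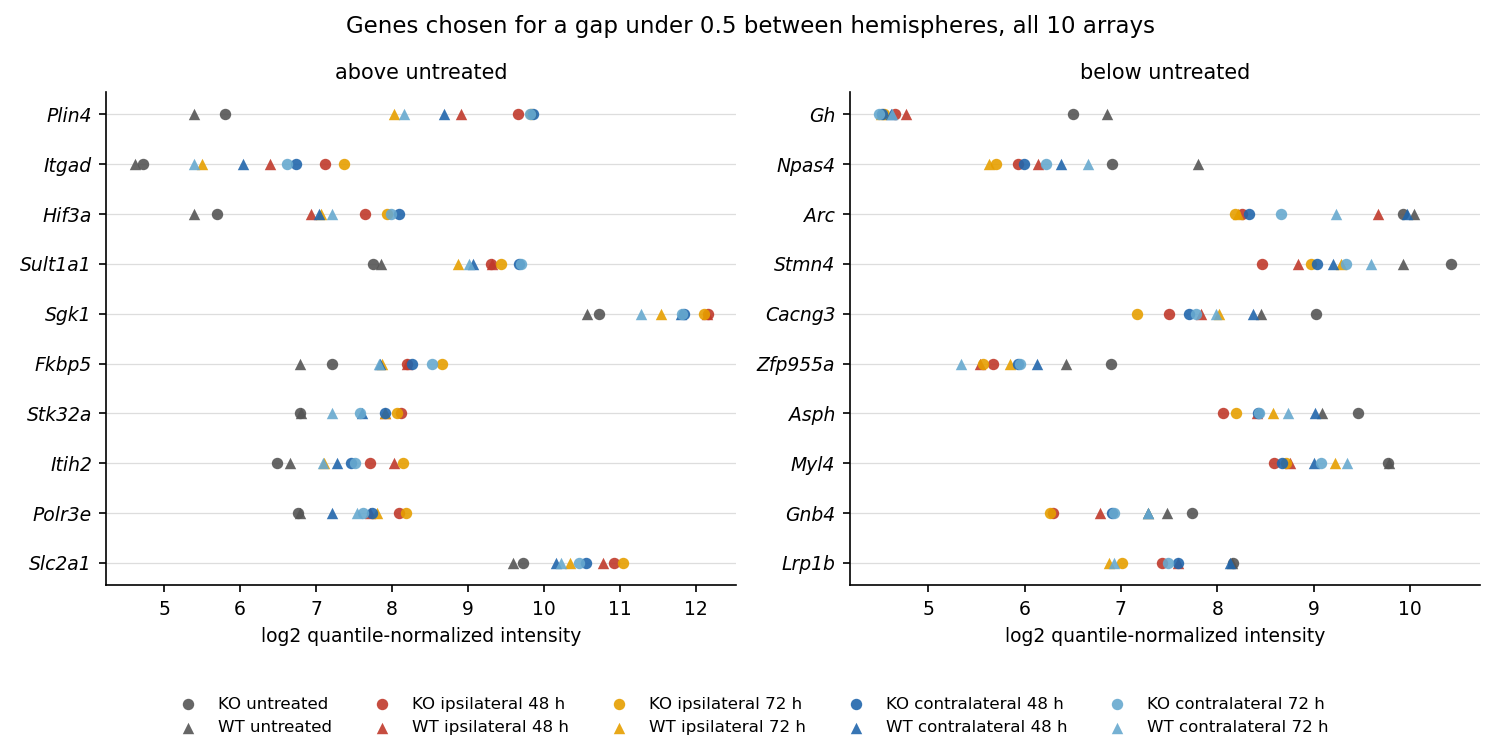
Levels on all 10 arrays of the 10 highest and 10 lowest genes picked for a gap under 0.5 between hemispheres. The horizontal axis is the log2 quantile-normalized intensity, circles are KO and triangles WT, grey is untreated brain, red and orange ipsilateral and dark and light blue contralateral tissue of the 48 h and 72 h protocols. For Plin4 every blue point lies beside its red or orange partner and the untreated points stand apart near 5.4 to 5.8.

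The protocols differed at few genes. Ipsilateral tissue of the 48 h protocol was higher than that of the 72 h protocol at 140 genes (1.5%) and lower at 175 (1.87%), a contrast in which the untreated arrays cancel. The 6 genes named by size as higher under the 72 h protocol included Gpnmb, Trem2, Tyrobp and Aif1 of the phagocyte and microglial lists. Gpnmb, a membrane glycoprotein of lipid-laden phagocytes, was at 6.70 (KO) and 6.87 (WT) in untreated brain, at 9.26 and 9.10 under the 48 h protocol and at 11.74 and 11.51 under the 72 h protocol. The genotypes lay close together in each condition and the protocols stood well apart, with a difference of -2.45 (adjusted p = 0.000457). Trem2, the lipid-sensing receptor of microglia, was at 6.62 (KO) and 6.67 (WT), then 7.86 and 7.90, then 9.44 and 9.18, a difference of -1.43 between protocols, and its adaptor Tyrobp differed by -1.24. Apoc2, an activator of lipoprotein lipase, differed by -1.498, Ifi27l2a by -1.41 and Aif1, the calcium-binding protein IBA1, by -1.36. Each of these 6 genes was above untreated brain on all 4 ipsilateral arrays.

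Across the lists, 9 of 25 phagocyte genes, 10 of 30 cell cycle genes, 5 of 20 interferon genes, 5 of 17 antigen presentation genes, 4 of 14 resting microglia markers and 3 of 8 complement genes were higher under the 72 h protocol, and none of these lists held a gene higher under the 48 h protocol. The median for phagocyte activation was 1.97 under the 48 h protocol and 2.84 under the 72 h protocol, and for the cell cycle 1.08 and 1.67. In the reactive astrocyte list 1 gene was higher under each protocol: Lgals1 under the 72 h protocol and Synm under the 48 h protocol. None of the 14 genes of activated endothelium passed, with medians of 1.64 and 1.07.

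Genes higher under the 48 h protocol were of mixed kinds. Il11, a cytokine of the interleukin 6 family, was at 5.13 (KO) and 4.81 (WT) in untreated brain, at 8.66 and 8.22 under the 48 h protocol and at 7.05 and 5.66 under the 72 h protocol. Both 48 h arrays were above both 72 h arrays, by 2.08 (adjusted p = 0.00631). Pcp2, known from Purkinje cells, was above background only on the 48 h ipsilateral arrays, at 6.55 (KO) and 5.91 (WT), at least 2.34-fold above the 72 h arrays. Prkaa2, a catalytic subunit of AMP-activated kinase (at least 2.41-fold), the histone methyltransferase Nsd1 (at least 2.03-fold) and Palm2 (at least 1.86-fold) were likewise below background on the 72 h arrays, and Kbtbd11 differed by 0.88. For these 4 genes both 72 h arrays lay below both 48 h arrays and below both untreated arrays. The ipsilateral arrays of the 48 h protocol held 16310 (KO) and 15734 (WT) probes above background, those of the 72 h protocol 14463 and 14251. The part of that difference in the genes below background on the 72 h arrays was not tested. Psmc1, a proteasome ATPase, was among the 6 lowest genes of the 48 h protocol (-1.43) but at 0.64 under the 72 h protocol, with contralateral arrays in the same order (5.87 and 6.62 under the 48 h protocol, 8.20 and 7.93 under the 72 h protocol). Its call under the 48 h protocol was lost without the KO untreated array (adjusted p = 0.0587). Rian, a non-coding RNA, was among the 6 lowest of the 72 h protocol (-1.52), with ipsilateral levels of 8.16 (KO) and 6.77 (WT) and contralateral levels of 8.24 and 7.14 there. That call was lost without either untreated array or the WT 72 h array (adjusted p from 0.069 to 0.117).

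The protocol contrast rests on single arrays. Without the KO ipsilateral array of the 48 h protocol 1 gene of all 9352 was called, and it was Gpnmb (adjusted p = 0.0165). Without the WT array of that protocol 28 were called and 5 of the 12 named genes kept their call, without the KO array of the 72 h protocol 77 and 9 of 12, and without the WT array of the 72 h protocol 19 and 7 of 12. The direction of the 12 named genes held in all 4 cases.

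**Figure D4:**
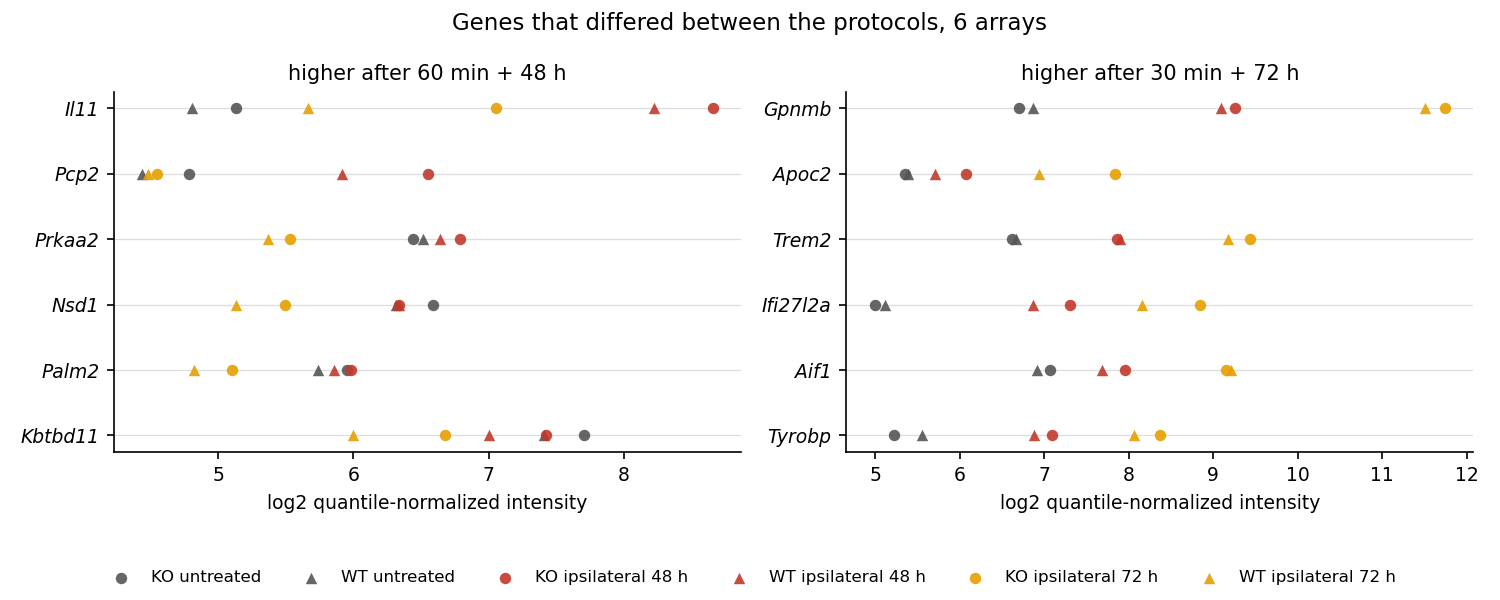
Levels on the 6 arrays of the 6 genes highest and the 6 genes lowest in the 48 h minus 72 h contrast of ipsilateral tissue. The horizontal axis is the log2 quantile-normalized intensity, circles are KO and triangles WT, grey is untreated brain, red the 48 h protocol and orange the 72 h protocol. For Gpnmb the orange points lie at 11.74 and 11.51, the red points at 9.26 and 9.10, and the grey points below 7.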

How the data were processed

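RNA of 10 brain samples was hybridised to 1-colour Illumina Mouse-6 arrays, and 6 arrays form the comparison. The deposited table holds a non-normalized intensity and a detection value, read as 1 minus the detection p-value, for each of 46373 probes and each array, per the file headers; further steps by the authors are not given in the sources used here. The authors' value table, also deposited, holds intensity values and served as an alternative only. Its values were quantile-normalized in pairs of arrays, as its sorted values showed, equal at 99.99% of ranks within each pair.

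Intensities were background-corrected (normexp, controls estimated through the detection p-values, offset of 16) and quantile-normalized over all 10 arrays with limma 3.58.1 under R 4.3.3. Probes with a detection p-value under 0.01 on at least 2 arrays were kept, 16067 in all. Of 46373 probes 29800 had 1 gene symbol in the platform annotation, 10 several and 16563 none, and 29774 matched RefSeq. For 9352 genes the probe with the highest mean level stood for the gene. One model with a term per condition and a term for genotype gave every contrast with 4 residual degrees of freedom, and p-values were adjusted over all 9352 genes.

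The named genes were the 12 highest and 12 lowest of the main comparison, 6 each way for each protocol and for their contrast, 10 each way for both hemispheres and 4 of each list, by size among those past the threshold (for the contrast, past it in the main comparison too; for lists, passed or not), predicted transcripts skipped, with Cd93 and Gfap, besides examples of the lists chosen after their values were seen. The 12 each way also had to have the same sign in all 4 differences from untreated brain, and the genes of each protocol the same sign in both genotypes. The members and the 31 gene lists, with 509 of 760 genes tested, were chosen with earlier results of these data known. The script was tested on simulated data. Promoter windows are RefSeq's, of build GRCm38.p6. Alternatives covered background correction, normalization, the filter, the variance prior, the arrays fitted, genotype, and each array left out; reading them for every list member and for contralateral calls was added after seeing the data.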

Additional observations from a re-analysis of the deposited data

Results flagged for a closer look

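The change from untreated brain differed between protocols, by limma's test of the difference itself, at 25 of the named genes, given here as the 48 h value minus the 72 h value on the log2 scale. The difference was positive for Il11 (2.08), Pcp2 (1.72), Prkaa2 (1.27), Map2 (1.22), Nsd1 (1.02), Palm2 (0.96) and Kbtbd11 (0.88). It was negative for the phagocyte and microglial genes Gpnmb (-2.45), Trem2 (-1.43), Aif1 (-1.36), Tyrobp (-1.24), Rnase4 (-1.02), Fcrls (-0.94) and Lyz2 (-0.93), and for the C1q chains C1qb (-0.82), C1qc (-0.80) and C1qa (-0.73). It was also negative for Psmc1 (-2.07), Apoc2 (-1.498), Ifi27l2a (-1.41), H2-Ab1 (-0.86) and Ifi30 (-0.74), and for the cell cycle genes Cdca3 (-1.11), Prc1 (-1.06) and Tk1 (-0.99). Adjusted p-values ran from 0.000457 (Gpnmb) to 0.0454 (Map2). These are fitted values, and for Pcp2, Prkaa2, Nsd1 and Palm2 the 72 h arrays were below background, so that only the lower bounds given above hold. The other 4 probes of Map2 gave 0.39, 0.26, -0.06 and -0.10 for this contrast, and none passed.

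At 4 of the named genes both KO ipsilateral arrays departed from the KO untreated array in the same direction. Both WT arrays departed from theirs in the opposite direction. How many of all genes tested do so is not given here. Both differences of a genotype share its untreated array, so an error in that array moves them together. For Glul the KO untreated array was below background, so its KO differences start from a value near the floor. The KO mean minus the WT mean was 1.30 for Glul, -0.63 for Il2rb, -1.04 for Sc5d and -0.58 for Fech. This difference between genotypes was not tested.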

How the results depend on the processing

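The count of genes called over both protocols was 2727, became 5231 under median centring and ranged from 1280 (without the KO untreated array) to 2743 with 1 array left out. For the 48 h protocol it was 2519, 6405 under median centring and 1073 (without its KO ipsilateral array) to 2500, and for the 72 h protocol 2220, with 1048 (without its KO ipsilateral array) to 2222. The protocol contrast, 315, gave 521 with no background correction, 1719 under median centring, 521 from the authors' table, 153 with no detection filter, 555 with a variance trend and robust prior, 178 from the 6 arrays alone, 71 with genotype left out, and 1 to 327 with 1 array left out. The contralateral count, 135, gave 5 with no filter, 209 with the variance trend, 13 with genotype left out, and 3 to 89 with 1 array left out. Ipsilateral against contralateral tissue, 2908, was 3949 under median centring and ranged from 1784 to 3046 with 1 array left out. The last 2 contrasts cannot be had from the 6 arrays alone. The cause of these shifts was not tested.

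Of 185 results for single genes 108 kept their direction and side of the threshold in every alternative; over 3439 alternative values 129 lost the call, 41 gained it and 15 reversed. The reversed values were -0.342 for Hif3a among probes detected on all 10 arrays, which picks its other probe; under median centring 0.278 for Il2rb, 0.0203 for Npas2, 0.0729 for Sc5d, 0.206 for Hba-a1, 0.176 for Fech and 0.403 for Alas2; without the KO untreated array 0.269 for Il2rb, -0.108 for Glul, 0.177 for Sc5d and 0.153 for Fech; without the WT untreated array 0.335 for Doc2g and 0.103 for Alas2; 0.0306 for Il2rb without the KO ipsilateral array of the 48 h protocol; and 0.0249 for Alas2 without the WT ipsilateral array of the 72 h protocol. With 1 array left out, the values of these genes ranged from -0.333 (without the WT untreated array) for Il2rb, from -1.33 (without the KO untreated array) for Doc2g, to 1.12 (without the WT untreated array) for Glul, from -0.858 for Sc5d and from -0.485 for Fech (both without the WT untreated array), and from -0.141 (without the KO untreated array) for Alas2. No paired analysis was possible because each genotype and condition has 1 array and so no replicate number to share; the genotype term already sets each array against that of its genotype. Genes near background have little room to fall.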
